A study of Oryctolagus cuniculus with 9 samples.

Results

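The genes described here carry the names of potassium, sodium and calcium channel subunits. They were taken by name from the deposited expression table of rabbit vocal fold tissue, as every row whose gene name starts with KCN, with SCN and a digit, or with CACN. This gave 123 of 20525 rows, of which 87 have potassium, 11 sodium and 25 calcium channel names. The name alone decided, so KCNRG, a channel regulator, and CACNG genes that may regulate other receptors are counted too. The 123 rows carry 120 gene symbols, because CACNA1A and CACNA1E are split over several rows in the rabbit annotation. Genes that the table lists only under a locus number were not members. By the tissue in which each channel is best known, 24 rows were classed as muscle (skeletal, cardiac or smooth), 68 as nerve, 9 as epithelium and 4 as immune cells, and 18 had no single use.

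Voltage-gated sodium and calcium channels carry inward current and drive the action potential and its coupling to contraction or secretion, while potassium channels carry outward current that ends the action potential and holds the membrane at rest. The pore is formed by alpha subunits, or by inward rectifier or two-pore subunits. Many channels, but not all, also carry accessory beta, gamma, alpha-2-delta or KCNE subunits that set their gating and their number at the surface. Vocal folds hold laryngeal skeletal muscle, motor and sensory nerve, stratified and airway epithelium, glands, vessels and, after injury, leukocytes, and each of these uses its own set of channels.

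Polyadenylated RNA was sequenced in 9 libraries, 3 per group. The SOT group was injured vocal folds treated with a hydrogel called SOT, the untreated group was injured folds without treatment, and the normal group was folds without injury. Both injured groups were sampled 1 week after injury. Strain, age, sex and the way of injury are not stated in the sources used here. Nothing states that the 3 libraries of a group came from separate animals. The p-values thus reflect only how much these libraries differ among themselves, which may be technical variation.

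Total counts were 48444181 to 49434268 in the SOT libraries, 49771566 to 50338111 in the untreated libraries and 44755718 to 45521838 in the normal libraries. The labels call the cells vocal cord histiocytes, a name for tissue macrophages, but markers of skeletal muscle, Schwann cells, stratified epithelium, airway and gland epithelium, smooth muscle and endothelium were all above 0 in all 9 libraries. The libraries were therefore read as whole vocal fold tissue. In whole tissue, fewer cells of a type and less RNA per cell cannot be told apart. Levels below are CPM, counts scaled to a common library size by edgeR's TMM method, given in the order of replicates 1, 2 and 3. Levels of different genes are compared only in FPKM, which is per gene length. A count of 0 in a library allows up to 3 counts, or 0.0557 to 0.0692 CPM, and covers counting error only.

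In normal folds, subunits of skeletal muscle channels were among the members with the highest levels. CACNA1S, the voltage sensor of excitation-contraction coupling in skeletal muscle, averaged 33.5 FPKM, SCN4B, a sodium channel beta subunit, 25.8 FPKM, and KCNN4, the intermediate-conductance calcium-activated potassium channel of leukocytes and gland epithelium, 25.0 FPKM. CACNB1, the beta subunit that pairs with CACNA1S, averaged 24.0 FPKM and KCNJ11, the pore of the ATP-sensitive potassium channel of muscle, 18.3 FPKM. They were followed by CACNB3 at 16.6 FPKM, CACNA2D1 at 16.3 FPKM, CACNG1 at 15.7 FPKM, KCNK1 at 14.1 FPKM, CACNG6 at 13.7 FPKM, KCNA7 at 12.3 FPKM, KCNS3 at 12.2 FPKM and SCN4A at 11.1 FPKM. A mean above 1 FPKM was reached by 45 members in SOT folds, 44 in untreated folds and 50 in normal folds.

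**Figure D1:**
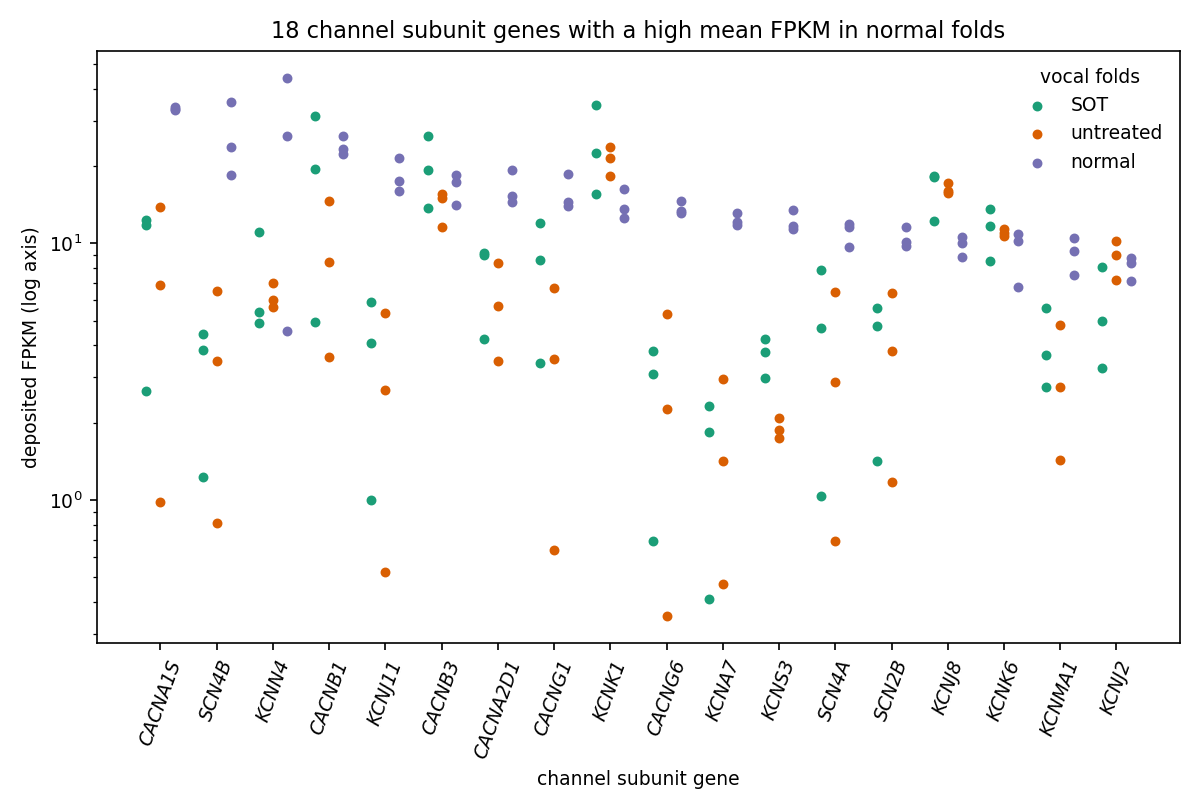
Deposited FPKM, on a log axis, of 18 channel genes with high means in normal folds, with 1 point per library for SOT, untreated and normal folds. CACNA1S averaged 33.5 FPKM in normal folds, and the injured libraries of muscle genes such as CACNA1S, KCNJ11 and SCN4A are spread more widely than the normal ones.

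Of the 123 members, 101 had enough counts to be tested, among them all 24 of muscle, 52 of nerve, 6 of epithelium, all 4 of immune cells and 15 without a single use. The filter keeps a gene that is high in only 1 group, so a count over the tested members leaves out genes that were low in every group. The 22 members that were not tested had 2 to 74 counts over all 9 libraries together. They were CACNA1E and CACNA1E_2, CACNA1F, CACNA2D4, CACNG2, CACNG5, CACNG7, KCNA10, KCNC2, KCND2, KCNE2, KCNH8, KCNJ1, KCNJ4, KCNJ13, KCNK9, KCNK16, KCNK18, KCNQ3, KCNS2, KCNV1 and SCN8A, which are mostly channels of neurons, retina and kidney.

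Untreated injured folds were compared with normal folds to find which channel genes differed 1 week after injury. Among those that fell were the muscle members KCNA7 and SCN4B, the nerve members SCN9A and KCNA6 and the silent subunit KCNS3, and among those that rose were the epithelial members KCNE3, KCNK5 and KCNJ15, the accessory subunits KCNE4 and KCNE5 and the myeloid channel KCNK13. By edgeR's quasi-likelihood test with Benjamini-Hochberg adjustment over 17344 genes, 11 of the 101 tested members rose and 16 fell. Over all tested genes 32.8% passed, 17.7% higher and 15.1% lower, and the members' shares were 26.7%, 10.9% and 15.8%. The members passed less often than the background, so the count itself is not a result about channels. Their median log2 fold change was -0.51, against -0.02 over all tested genes. All 3 untreated libraries lay above all 3 normal libraries for 20 members and below them for 41, where the background is 28.0% and 27.1% of all tested genes.

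The classes by use are given as counts, and differences between them were not tested. Over all tested genes 17.7% rose and 15.1% fell. All untreated libraries were above all normal libraries in 28.0% and below them in 27.1%. The same shares stand beside the counts of companion and marker genes in untreated folds below. Of 24 muscle members, 2 rose and 6 fell, with a median log2 fold change of -1.37, and 14 had all untreated libraries below all normal libraries. Of 52 nerve members, 3 rose and 8 fell, with a median of -0.66, and the share that fell, 15.4%, was close to the 15.1% of all tested genes. Of 6 epithelial members, 3 rose and 0 fell, with a median of 1.33, and 5 had all untreated libraries above all normal libraries. Of 4 immune members, 1 rose and 0 fell. Of 15 members without a single use, 2 rose and 2 fell.

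These counts depended on single libraries. The 16 that fell were 7 without untreated replicate 3 and 10 without untreated replicate 2 or normal replicate 2, and the 11 that rose were between 8 and 13. Over all genes the number lower also fell off without untreated replicate 3, to 1230 of 17715, against 2618 of 17344 with all libraries. Over the 9 fits that each left out 1 library, 7 of the 11 rose in every fit (KCNE3, KCNE4, KCNE5, KCNK5, KCNK13, KCNAB2 and KCNJ8) and 6 of the 16 fell in every fit (SCN9A, KCNA6, KCNS3, KCNJ5, KCNAB1 and CACNA2D2).

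**Figure D2:**
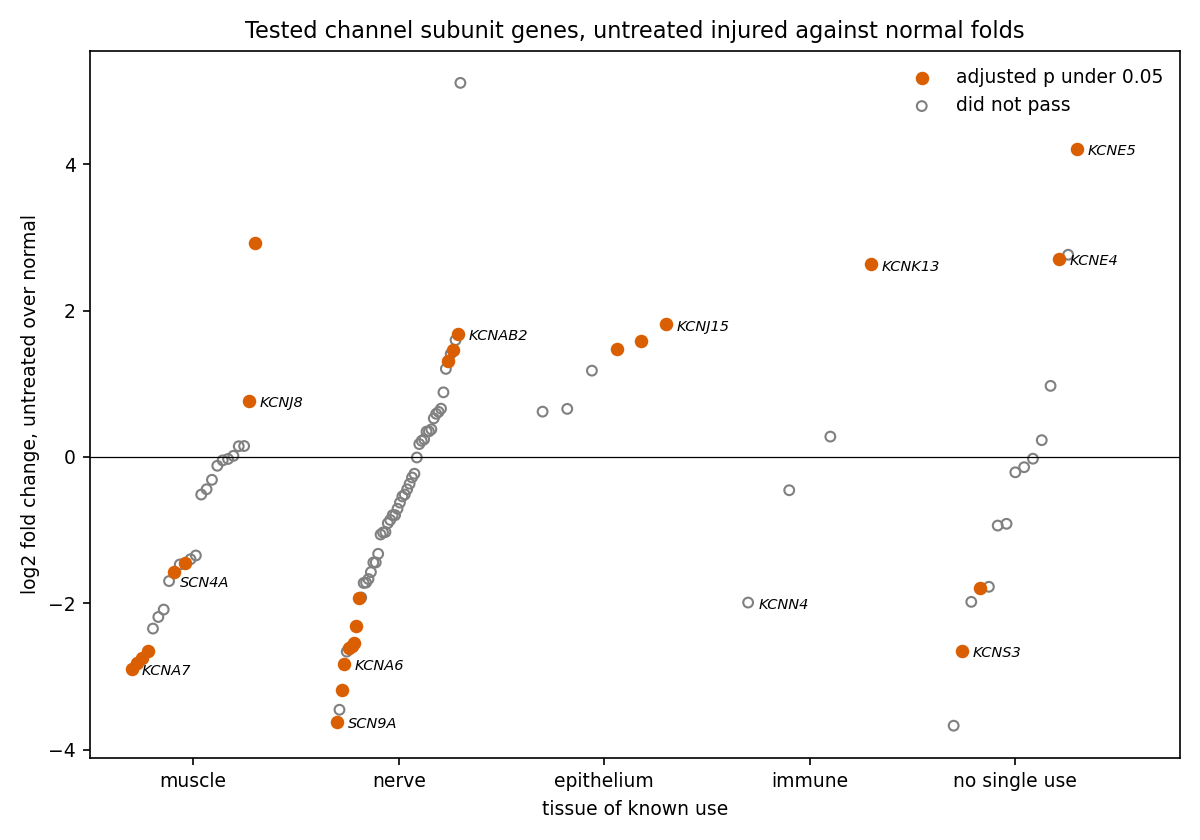
Log2 fold change, untreated over normal folds, of the 101 tested channel members by the tissue in which each is best known, with filled points for members that passed an adjusted p of 0.05. The muscle and nerve medians lie below 0, at -1.37 and -0.66, and the epithelial median lies above 0, at 1.33.

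SCN4A encodes the sodium channel of adult skeletal muscle (chr19:48743171-48785018, minus strand, build OryCun2.0). It had 52.7, 5.73 and 23.3 CPM in untreated folds and 96.3, 77.1 and 91.3 CPM in normal folds. Every untreated library was below every normal library, but its log2 fold change of -1.69 ± 0.83 (SE) had an adjusted p of 0.151 (n = 3 libraries per group, edgeR quasi-likelihood test). The summed level of 12 skeletal muscle markers, none at 0, was 7613, 1658 and 7396 CPM in SOT folds, 6054, 730 and 2603 CPM in untreated folds and 18853, 16217 and 19356 CPM in normal folds. Untreated replicate 2 thus had the lowest sum of muscle markers and the lowest SCN4A.

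Other described members of the muscle sodium and calcium channel complexes were lower in untreated libraries, but most did not pass the test. SCN4B had 31.1, 3.93 and 16.4 CPM in untreated folds and 112, 164 and 84.8 CPM in normal folds, and fell by 2.81 ± 0.74 on the log2 scale (adjusted p = 0.0214). The call was lost without untreated replicate 3 (adjusted p = 0.0791) or normal replicate 2 (0.0605). CACNA1S (chr16:70324546-70381515, plus strand) had 97.2, 6.96 and 48.0 CPM in untreated folds and 238, 229 and 225 CPM in normal folds. Its groups did not overlap, and its log2 fold change of -2.18 ± 0.85 had an adjusted p of 0.0807. CACNG1, the gamma subunit of the same complex (chr19:50421353-50431417), had 11.8, 1.15 and 6.16 CPM in untreated folds and 24.5, 31.9 and 24.7 CPM in normal folds (adjusted p = 0.0589). CACNB1 had 65.5, 16.3 and 37.3 CPM in untreated folds and 104, 97.2 and 113 CPM in normal folds (adjusted p = 0.136). In these genes untreated replicate 2, the library with the lowest sum of muscle markers, was the lowest each time.

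CACNA2D1, the alpha-2-delta subunit of the muscle calcium channel and of vessels and sensory neurons (chr7:33392572-33903207), had 35.5, 14.9 and 23.6 CPM in untreated folds and 80.5, 62.6 and 59.1 CPM in normal folds. It fell by 1.45 ± 0.38 on the log2 scale (adjusted p = 0.0208), a call that was lost without untreated replicate 2 (0.0627), untreated replicate 3 (0.0755) or normal replicate 1 (0.0658). CACNA2D2 and CACNA2D3, the alpha-2-delta subunits better known from neurons, fell with it. CACNA2D3 had 5.17, 1.23 and 2.30 CPM in untreated folds and 14.2, 20.1 and 17.8 CPM in normal folds and fell by 2.58 ± 0.57 (adjusted p = 0.0108, and 0.0513 without untreated replicate 3). CACNA2D2 had 3.12, 1.23 and 1.40 CPM in untreated folds and 11.2, 8.11 and 9.24 CPM in normal folds and fell by 2.31 ± 0.46 (adjusted p = 0.00751). All 3 tested genes of this subunit class fell, and 1 of them did without untreated replicate 3. Among all tested genes 15.1% fell, and the class holds few genes and was not tested as a set. CACNA2D4 was the fourth and was not tested.

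Of 14 potassium channel members classed as muscle, 4 fell, 1 rose and 9 did not pass. KCNA7, a voltage-gated channel of skeletal muscle and heart, had 8.72, 1.40 and 4.13 CPM in untreated folds and 38.1, 34.5 and 33.3 CPM in normal folds, a fall of 2.89 ± 0.74 on the log2 scale (adjusted p = 0.0192, and 0.0768 without untreated replicate 3). KCNJ11 had 7.47, 0.764 and 3.73 CPM in untreated folds and 29.8, 21.9 and 23.6 CPM in normal folds and fell by 2.65 ± 0.82 (adjusted p = 0.0383). The KCNJ11 call was lost without untreated replicate 2 or 3 or any normal library, with adjusted p between 0.0671 and 0.12. KCNJ5, a G protein-gated inward rectifier best known from the heart atrium (chr1:87946272-87982672), was low throughout, with 0.690, 0.573 and 0.482 CPM in untreated folds and 2.37, 5.54 and 3.80 CPM in normal folds. It fell by 2.74 ± 0.40 (adjusted p = 0.00218). KCNJ5 differed from KCNA7 and KCNJ11 in that its 3 untreated libraries lay close together. KCNMA1, the large-conductance calcium-activated channel of smooth muscle and many other cells, had 21.9, 6.58 and 12.4 CPM in untreated folds and 42.0, 46.4 and 32.9 CPM in normal folds and fell by 1.57 ± 0.44 (adjusted p = 0.0262). Without untreated replicate 2 or 3 or normal replicate 1 or 2 its adjusted p was between 0.0593 and 0.0924.

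Set against SCN4A within each library, the other muscle genes did not all keep their proportion. KCNA7 averaged 0.362 times SCN4A in SOT folds, 0.543 times in untreated folds and 1.12 times in normal folds, in FPKM, and no 2 groups overlapped. KCNJ11 averaged 0.864 times SCN4A in SOT folds, 0.837 times in untreated folds and 1.66 times in normal folds. CACNA1S and SCN4B were lower against SCN4A in both injured groups than in normal folds, without overlap. SCN4A itself fell by less in untreated folds than the 12 skeletal muscle markers, whose median log2 fold change was -2.46. CACNA1S, at -2.18, also fell by less than that median, and KCNA7 and KCNJ11, at -2.89 and -2.65, fell by more. A lower ratio to SCN4A is thus not a lower ratio to muscle markers, which was not computed. CACNG1 and CACNB1 against SCN4A overlapped between untreated and normal folds. KCNC4, a fast voltage-gated potassium channel that also occurs in muscle, was classed as nerve. It stood at 1.73 times SCN4A in SOT folds, 1.03 times in untreated folds and 0.242 times in normal folds, without overlap between injured and normal folds. The level of KCNC4 itself was 25.4, 3.23 and 11.4 CPM in untreated folds and 12.7, 11.6 and 7.16 CPM in normal folds. These overlapped (adjusted p = 0.775, edgeR quasi-likelihood test). The ratios to SCN4A were chosen after their values were seen and are given without a test.

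**Figure D3:**
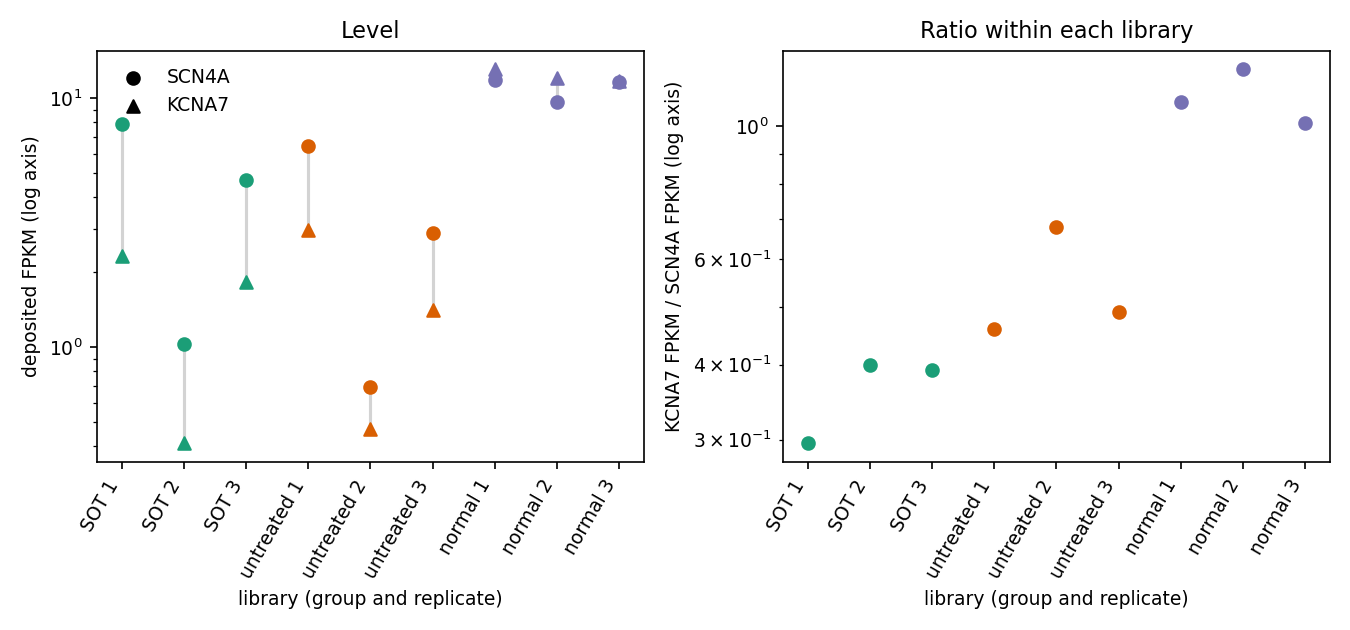
Deposited FPKM of SCN4A and KCNA7 in each library (left) and the ratio of KCNA7 to SCN4A within each library (right), both on log axes, for SOT, untreated and normal folds. The levels vary widely among the injured libraries, and the ratio averaged 0.362 in SOT folds, 0.543 in untreated folds and 1.12 in normal folds, with no overlap between groups.

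Among members known from smooth muscle and vessel walls, KCNMA1 fell, as above, and KCNJ8 rose. KCNMA1, which many other cells also use, was lowest in untreated replicate 2, as was the sum of skeletal muscle markers. KCNJ8, the pore of the ATP-sensitive potassium channel of vascular smooth muscle and pericytes (chr8:18326977-18333721), had 44.5, 41.1 and 40.9 CPM in untreated folds and 22.7, 25.3 and 26.3 CPM in normal folds. It rose by 0.77 ± 0.17 on the log2 scale (adjusted p = 0.011). CACNA1C, the calcium channel of cardiac and smooth muscle, had 18.1, 18.7 and 18.5 CPM in untreated folds and 12.7, 22.1 and 15.1 CPM in normal folds, with overlap (adjusted p = 0.667). KCNMB1, the smooth muscle beta subunit of the KCNMA1 channel, had 5.06, 4.69 and 5.21 CPM in untreated folds and 6.52, 6.42 and 2.51 CPM in normal folds (adjusted p = 0.941). KCNJ2, the inward rectifier that sets the resting potential of muscle, had 68.3, 48.5 and 59.3 CPM in untreated folds and 55.4, 46.7 and 56.6 CPM in normal folds (adjusted p = 0.743). The summed level of 8 smooth muscle and mural markers was 1858 to 2299 CPM in untreated folds and 1108 to 1620 CPM in normal folds, and that of 7 endothelial markers was 1283 to 1450 CPM in untreated folds and 406 to 672 CPM in normal folds. Of the smooth muscle and mural markers 2 rose and 2 fell, and of the endothelial markers 3 rose. The part of these cells, or of skeletal muscle, in the KCNJ8 and KCNMA1 results was not tested.

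The 16 muscle members that did not pass ranged from -2.34 for CACNG6, a gamma subunit of skeletal muscle, to 0.15 for KCNJ2 on the log2 scale, and 9 of them lay within 1 of no change. The number of muscle members that fell was 1 without untreated replicate 3, 3 without untreated replicate 2, normal replicate 1 or normal replicate 2, and 10 without untreated replicate 1. Other genes of excitation-contraction coupling were listed beside the channels. Of 16 listed, 13 were measured and tested, 0 rose and 3 fell. Among these were CASQ1, the calcium store of the sarcoplasmic reticulum, and CLCN1, the muscle chloride channel (log2 fold change -2.80, adjusted p = 0.035). Of all tested genes 15.1% fell, and in 27.1% every untreated library was below every normal library. All 13 coupling genes lay below in this way, and their median was -2.23. Without untreated replicate 3 or any normal library 0 of them fell, without untreated replicate 2 there was 1, without SOT replicate 2 there were 8 and without untreated replicate 1 there were 9. Of the 12 skeletal muscle markers, 8 fell, but 0 did without untreated replicate 3 and 1 did without untreated replicate 2 or any normal library. The part of muscle content in the channel values was not tested.

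Of the 52 tested nerve members, the 8 that fell included SCN9A, SCN7A, KCNA6 and KCNAB1. SCN9A encodes the sodium channel of pain-sensing and sympathetic neurons (chr7:105662643-105768141). It was rare, with 4, 6 and 4 counts in untreated folds and 35, 63 and 69 counts in normal folds, or 0.0837, 0.127 and 0.0838 CPM against 0.807, 1.39 and 1.51 CPM. It fell by 3.62 ± 0.51 on the log2 scale (adjusted p = 0.00198), and 4 to 6 counts are close to the floor of 3. SCN7A, its neighbour on the chromosome (chr7:105877618-105974339), encodes a sodium-sensing relative of the sodium channels that is found in Schwann cells and sensory neurons. SCN7A had 4.66, 0.955 and 2.62 CPM in untreated folds and 35.9, 20.0 and 19.2 CPM in normal folds and fell by 3.19 ± 0.90 (adjusted p = 0.0275). Without untreated replicate 2 or 3 or normal replicate 1 or 2 its adjusted p was between 0.0522 and 0.095. Neither gene overlapped between the groups.

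KCNA6, a voltage-gated potassium channel of axons (chr8:30899889-30933108), had 4.39, 2.04 and 4.23 CPM in untreated folds and 19.1, 33.7 and 23.0 CPM in normal folds. It fell by 2.83 ± 0.47 on the log2 scale (adjusted p = 0.00358). KCNAB1, a beta subunit of such channels, had 7.76, 3.31 and 5.17 CPM in untreated folds and 23.5, 21.5 and 16.8 CPM in normal folds and fell by 1.92 ± 0.35 (adjusted p = 0.00492). KCNAB2, the related beta subunit, went the other way. It had 14.2, 15.6 and 15.6 CPM in untreated folds and 4.68, 4.64 and 4.78 CPM in normal folds and rose by 1.68 ± 0.18 (adjusted p = 0.000778). KCNH1, a voltage-gated channel of neurons and of dividing cells, had 0.628, 0.552 and 0.879 CPM in untreated folds and 7.19, 3.54 and 1.83 CPM in normal folds, and fell by 2.60 ± 0.60 (adjusted p = 0.0129, and 0.0534 without untreated replicate 2). KCNC1, a fast potassium channel, fell by 2.54 (adjusted p = 0.0294), and without normal replicate 1 or 2 or untreated replicate 2 or 3 its adjusted p was between 0.0642 and 0.107. KCNA1 and KCNA2 encode the potassium channels beside the node of Ranvier. KCNA1 had 19.5, 9.08 and 11.7 CPM in untreated folds and 13.3, 25.0 and 19.1 CPM in normal folds, with overlap (adjusted p = 0.289). KCNA2 stood at 0.167, 0 and 0.293 CPM in untreated folds and 0.323, 0.308 and 0.175 CPM in normal folds (adjusted p = 0.672).

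The nerve members that rose, KCNAB2 included, also numbered KCND1 and CACNA1B. KCND1, a transient potassium channel, had 3.81, 4.92 and 5.05 CPM in untreated folds and 1.22, 2.64 and 1.70 CPM in normal folds, and rose by 1.31 ± 0.33 on the log2 scale (adjusted p = 0.0174). Without untreated replicate 2 or 3 or normal replicate 1 or 3 its adjusted p was between 0.0501 and 0.0653. CACNA1B, the N-type calcium channel of nerve terminals, had 1.82, 1.66 and 1.34 CPM in untreated folds and 0.553, 0.770 and 0.415 CPM in normal folds, and rose by 1.47 ± 0.36 (adjusted p = 0.0158, and 0.0547 without untreated replicate 2). The 41 nerve members that did not pass ranged from -3.45 for KCNG3 to 5.11 for KCNJ6 on the log2 scale, and both are near the floor in one group. SCN2B, a sodium channel beta subunit of nerve and muscle, had 31.3, 5.84 and 18.4 CPM in untreated folds and 49.4, 55.5 and 45.9 CPM in normal folds (adjusted p = 0.111). The number of nerve members that fell was 5 without untreated replicate 3. The number that rose was 1 without untreated replicate 2, 2 without untreated replicate 3, normal replicate 1 or normal replicate 3, and 5 without SOT replicate 3.

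Of 15 other genes of the node of Ranvier and axon, 13 were tested, 1 rose and 6 fell. Those that fell included NFASC, CNTN1, NRCAM, GLDN and SPTBN4, several of them adhesion or skeleton proteins of the node and the stretch beside it. NRCAM fell by 4.61, GLDN by 3.43 and CNTN1 by 3.42 on the log2 scale. PRPH, a neuronal intermediate filament, was called higher, with all normal libraries at 0, and was not called higher in 8 of the 9 fits with 1 library left out. The summed level of 10 Schwann cell markers was 249, 145 and 175 CPM in untreated folds and 661, 851 and 629 CPM in normal folds, and 5 of the 10 fell. Markers of cartilage, a tissue that lies beside the fold, differed as well. The 8 measured summed to 45.6 to 113 CPM in untreated folds and 2338 to 4843 CPM in normal folds, and 7 fell. The part of these cells in the nerve channel results was not tested.

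Of the 6 tested members classed as epithelial by known use, 3 rose in untreated folds. Which cells of the fold carried them was not measured. KCNE3, the accessory subunit that keeps the KCNQ1 channel of secretory and airway epithelium open (chr1:142140184-142150416), had 40.8, 26.0 and 32.8 CPM in untreated folds and 8.97, 10.1 and 14.1 CPM in normal folds. It rose by 1.59 ± 0.31 on the log2 scale (adjusted p = 0.00683). KCNK5, an acid-sensitive two-pore channel of transporting epithelium that also occurs in lymphocytes (chr12:29027158-29065702), had 23.2, 30.4 and 27.0 CPM in untreated folds and 10.8, 11.4 and 6.66 CPM in normal folds, and rose by 1.48 ± 0.24 (adjusted p = 0.00337). KCNJ15, an inward rectifier of kidney and other epithelia, had 26.9, 27.3 and 27.0 CPM in untreated folds and 9.82, 7.63 and 5.66 CPM in normal folds, and rose by 1.81 ± 0.47 (adjusted p = 0.0207). The KCNJ15 call was lost without untreated replicate 2 or 3 or normal replicate 2 or 3, with adjusted p between 0.0548 and 0.069. KCNQ1 itself had 10.5, 6.77 and 9.55 CPM in untreated folds and 7.19, 6.38 and 3.45 CPM in normal folds, with overlap (adjusted p = 0.19). KCNK1, a two-pore channel, had 22.8, 29.8 and 26.3 CPM in untreated folds and 16.8, 15.2 and 19.4 CPM in normal folds (adjusted p = 0.0951). KCNJ16, an inward rectifier that pairs with KCNJ15 or KCNJ10, had 1.55, 1.17 and 2.03 CPM in untreated folds and 1.13, 0.462 and 0.502 CPM in normal folds (adjusted p = 0.211).

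Of 16 other tested ion and water transport genes of epithelium, 1 rose and 5 fell. CFTR, the chloride channel, rose by 2.80 on the log2 scale, while AQP5, a water channel of glands, fell by 3.78, and SCNN1G, ATP1B1, ATP12A and SLC26A9 fell too. The number that fell was 2 without untreated replicate 2 or 3 and 3 without normal replicate 1 or 2. The summed level of 8 markers of stratified epithelium, of which 1 rose and 2 fell, was 8722, 9532 and 9240 CPM in untreated folds and 8735, 6892 and 16600 CPM in normal folds. For 12 markers of airway and gland epithelium, of which 1 rose and 3 fell, it was 2391, 1701 and 1908 CPM in untreated folds and 13426, 15692 and 2447 CPM in normal folds. In untreated folds the stratified sum lay within the normal range and the airway and gland sum below it. In the same folds 7 of 8 macrophage markers and 6 of 7 neutrophil markers rose, as given below. The part of epithelial cells or leukocytes in the epithelial channel results was not tested.

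Of the immune channels, KCNK13, a two-pore channel known from microglia (chr20:15335218-15436143), had 4.08, 4.73 and 3.96 CPM in untreated folds and 0.853, 0.506 and 0.699 CPM in normal folds. It rose by 2.63 ± 0.42 on the log2 scale (adjusted p = 0.00306). KCNN4 had 15.6, 12.7 and 13.2 CPM in untreated folds and 97.8, 57.1 and 9.78 CPM in normal folds, with overlap (adjusted p = 0.0598). Its normal libraries were high where the sum of airway and gland markers was high and low in normal replicate 3, where that sum was 2447 CPM. That relation was not tested. KCNA3, the voltage-gated potassium channel of T cells, had 4.60, 4.52 and 4.23 CPM in untreated folds and 8.53, 6.66 and 3.10 CPM in normal folds (adjusted p = 0.502). Of 9 T cell markers 1 rose and 1 fell. KCNK6, a two-pore channel of macrophages and epithelium, had 60.2, 62.3 and 62.9 CPM in untreated folds and 56.9, 37.2 and 58.8 CPM in normal folds, without overlap but with an adjusted p of 0.31.

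Ion channels of leukocytes from other families were counted beside them. Of 17 tested, 11 rose and 1 fell, where 17.7% of all tested genes rose and 15.1% fell. Without untreated replicate 2 or 3 the number that rose was 6. Over all genes the number higher was 3074 with all libraries, 2002 without untreated replicate 2 and 1915 without untreated replicate 3. The 11 leukocyte channels that rose included the proton channel HVCN1 and the store-operated calcium entry genes ORAI2, ORAI3 and STIM2. The others were the cation channels TRPV2, P2RX4 and MCOLN1, the volume-regulated anion channel subunits LRRC8A, LRRC8C and LRRC8D, and CLIC1. STIM1, the calcium sensor that is also abundant in muscle, fell. Macrophage markers summed to 1287, 1517 and 1483 CPM in untreated folds and 236, 280 and 247 CPM in normal folds, and 7 of 8 rose. Neutrophil markers summed to 4975, 7081 and 6079 CPM in untreated folds and 685, 590 and 2044 CPM in normal folds, and 6 of 7 rose. Their part in the channel results was not tested.

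The KCNE genes encode single-pass accessory subunits of voltage-gated potassium channels. In untreated folds 3 of the 4 that were tested rose, in each of the 9 fits with 1 library left out, where 17.7% of all tested genes rose. Every subunit class was counted, most are not described here, and none was tested as a set. Besides KCNE3, KCNE4, which inhibits KCNQ1 and the T cell channel KCNA3 (chr7:164484091-164484675), had 8.62, 8.62 and 9.80 CPM in untreated folds and 1.08, 1.63 and 1.42 CPM in normal folds, and rose by 2.71 ± 0.52 on the log2 scale (adjusted p = 0.00634). KCNE5, a KCNQ1 regulator of heart (X:58021083-58022685), had 6.78, 1.95 and 3.66 CPM in untreated folds and 0, 0.440 and 0.218 CPM in normal folds, and rose by 4.21 ± 0.90 (adjusted p = 0.00934). KCNE1, the partner of KCNQ1 in heart and inner ear, varied widely within groups, with 11.8, 0.424 and 3.94 CPM in untreated folds and 16.5, 2.35 and 3.06 CPM in normal folds (adjusted p = 0.82). KCNE2 was not tested. Whether counting used the strand is not stated, so reads of a gene that overlaps one of these short genes cannot be told apart from its own.

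KCNS3 and CACNA1D fell among the members without a single use. KCNS3, an electrically silent subunit that modifies other voltage-gated potassium channels (chr2:166963702-166965276), had 3.91, 3.54 and 3.22 CPM in untreated folds and 21.7, 24.7 and 20.5 CPM in normal folds. It fell by 2.64 ± 0.19 on the log2 scale, with the smallest adjusted p among the members, 0.000219. CACNA1D, a calcium channel of endocrine cells, heart and hair cells, had 3.51, 2.55 and 2.83 CPM in untreated folds and 9.01, 11.3 and 10.4 CPM in normal folds, and fell by 1.79 ± 0.48 (adjusted p = 0.0229). Without untreated replicate 2 or 3 or normal replicate 2 its adjusted p was between 0.0606 and 0.0811. CACNB3, the most abundant calcium channel beta subunit beside CACNB1, had 43.9, 34.2 and 44.7 CPM in untreated folds and 50.3, 40.0 and 51.7 CPM in normal folds (adjusted p = 0.487).

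**Figure D4:**
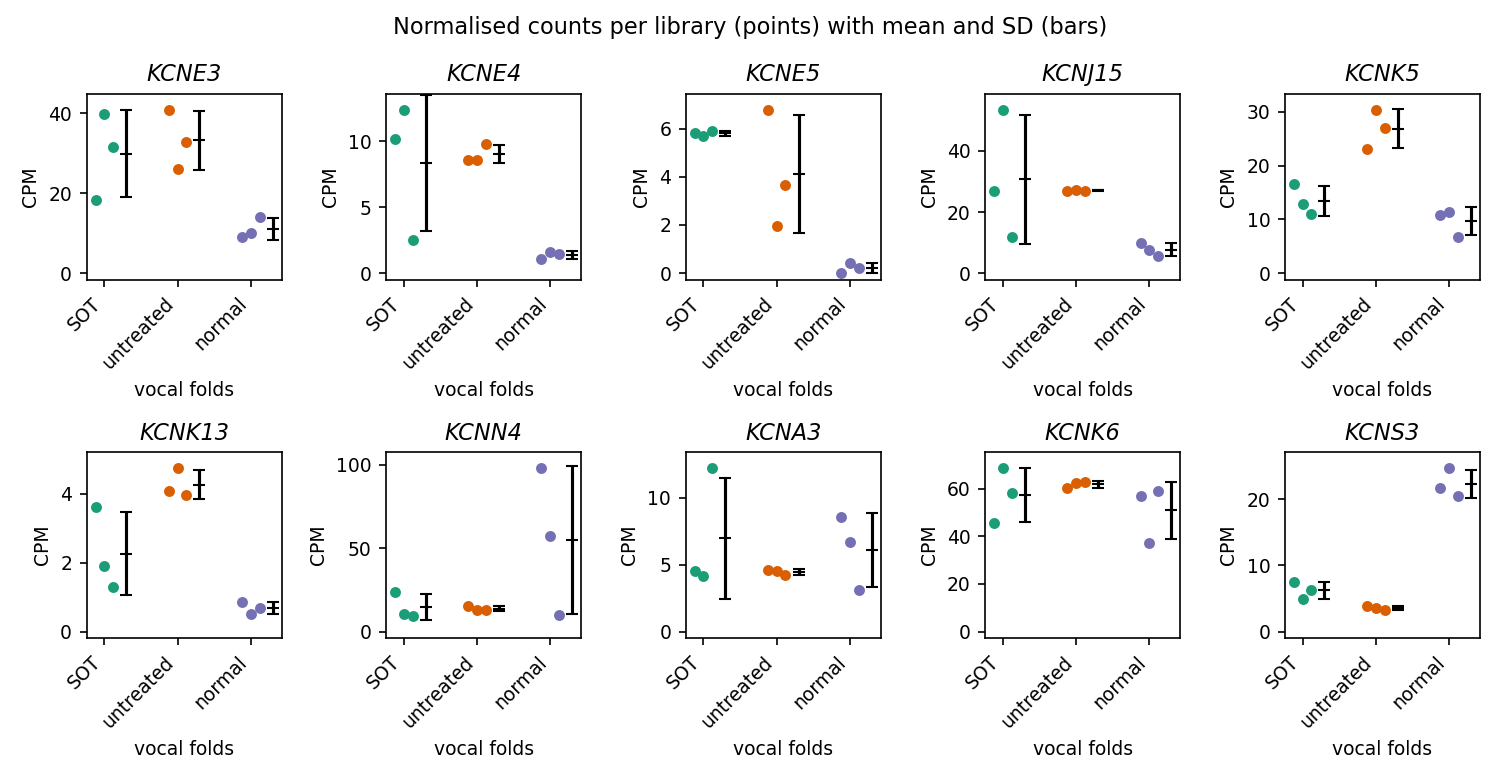
Level in CPM of 10 epithelial, immune and other channel genes, 1 panel per gene, with a point for each library and the mean and SD of the 3 libraries as a bar, for SOT, untreated and normal folds. The untreated libraries of KCNE3, KCNE4, KCNE5, KCNJ15, KCNK5 and KCNK13 lie above all normal libraries, those of KCNS3 lie below them, and KCNN4 is high in 2 of the 3 normal libraries.

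SOT folds were compared with untreated folds to find which channel genes differed between injured folds with and without the hydrogel. By edgeR's quasi-likelihood test 0 of 101 members passed in either direction, 12 had an unadjusted p under 0.05, and 2 of 17344 genes passed over the whole table, both lower, or 0.0115%. DESeq2 called 3 members higher, KCNS3, SCN3A and CACNB2 (adjusted p = 0.00541, 0.0267 and 0.0279), and 1 lower, KCNK5 (0.0123), where it called 645 of 17688 genes, or 3.65%. The median log2 fold change of the members was 0.13, against 0.01 over all tested genes. All SOT libraries lay above all untreated libraries for 6 members and below them for 7, where the background is 7.4% and 12.4%. Fold changes ran from -2.21 for KCNE1 to 1.98 for SCN3A on the log2 scale, and 80 of 101 lay within 1 of no change.

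In the 4 members of smallest p in each direction, the SOT and untreated libraries did not overlap. Choosing them by p in this same comparison favours that, so it is not a further result. KCNS3 had 7.56, 4.99 and 6.23 CPM in SOT folds, against 3.91, 3.54 and 3.22 CPM in untreated folds (log2 fold change 0.81 ± 0.18, unadjusted p = 0.00186, adjusted p = 0.169). SCN3A, a sodium channel of developing neurons, had 1.04, 4.69 and 3.42 CPM in SOT folds, against 0.962, 0.679 and 0.670 CPM in untreated folds (1.98 ± 0.57, unadjusted p = 0.00786, adjusted p = 0.238). CACNB2, the calcium channel beta subunit of heart, had 11.6, 9.74 and 8.16 CPM in SOT folds, against 7.20, 5.94 and 5.57 CPM in untreated folds (0.66 ± 0.19, unadjusted p = 0.00714, adjusted p = 0.234). SCN9A had 16, 12 and 12 counts in SOT folds, against 4, 6 and 4 in untreated folds (unadjusted p = 0.0227, adjusted p = 0.313). None of these passed after adjustment.

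In the other direction, KCNK5 had 16.5, 12.9 and 11.0 CPM in SOT folds, against 23.2, 30.4 and 27.0 CPM in untreated folds (log2 fold change -0.99 ± 0.24, unadjusted p = 0.00285, adjusted p = 0.184). KCNA1 had 7.91, 5.53 and 4.48 CPM in SOT folds, against 19.5, 9.08 and 11.7 CPM in untreated folds (unadjusted p = 0.0102, adjusted p = 0.256). CACNA1B had 0.675, 0.804 and 0.818 CPM in SOT folds, against 1.82, 1.66 and 1.34 CPM in untreated folds (unadjusted p = 0.0154, adjusted p = 0.287). KCND1 had 2.88, 2.22 and 1.91 CPM in SOT folds, against 3.81, 4.92 and 5.05 CPM in untreated folds (unadjusted p = 0.0158, adjusted p = 0.287). Without SOT replicate 1, SCN3A rose by 2.43 (adjusted p = 0.0364) and KCNJ2 fell by 1.23 (adjusted p = 0.0326), where 2.24% of all tested genes passed, and in the other 8 fits with 1 library left out 0 members passed. KCNJ2 had 51.2, 19.5 and 29.5 CPM in SOT folds, against 68.3, 48.5 and 59.3 CPM in untreated folds. KCNK13 had 3.62, 1.89 and 1.28 CPM in SOT folds, against 4.08, 4.73 and 3.96 CPM in untreated folds (adjusted p = 0.389), and macrophage markers summed to 829, 595 and 466 CPM in SOT folds, against 1287, 1517 and 1483 CPM in untreated folds. KCNA3 was highest in SOT replicate 3, at 12.2 CPM against 4.52 and 4.17 CPM in the other SOT libraries, and that library also had the highest sum of T cell markers, 140 CPM against 42.0 and 38.7 CPM. Whether these go together was not tested.

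SOT folds were last compared with normal folds. The comparison uses the same normal libraries as the one of untreated folds, so the calls are given side by side only. Of 101 members, 8 rose and 11 fell, or 7.92% and 10.9%, where 9.01% and 7.67% of all tested genes passed in each direction and 16.7% in either. All 8 that rose, KCNE3, KCNE4, KCNE5, KCNJ8, KCNJ15, KCNK13 and KCNAB2 among them, had also risen in untreated folds. Of the 11 that fell, 9 had fallen in untreated folds. KCNA1 and KCNK12 passed in SOT folds alone, and the difference between SOT and untreated folds did not pass for either (unadjusted p = 0.0102 for KCNA1 and 0.544 for KCNK12). All SOT libraries lay above all normal libraries for 10 members and below them for 31, where the background is 17.8% and 18.6%. The median log2 fold change was -0.42, against 0.02 over all tested genes.

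The accessory subunits KCNE4, KCNE5 and KCNAB2 lay above all normal libraries in SOT folds too. KCNE5 had 5.83, 5.70 and 5.89 CPM in SOT folds and 0, 0.440 and 0.218 CPM in normal folds (log2 fold change 4.70, adjusted p = 0.0136). KCNE4 had 10.2, 12.4 and 2.51 CPM in SOT folds and 1.08, 1.63 and 1.42 CPM in normal folds (2.60, adjusted p = 0.0151, and 0.0612 without normal replicate 1). KCNAB2 had 11.7, 8.09 and 12.6 CPM in SOT folds and 4.68, 4.64 and 4.78 CPM in normal folds (1.20, adjusted p = 0.00702). KCNS3 was lower in SOT than in normal folds by 1.83 on the log2 scale (adjusted p = 0.00265) and KCNAB1 by 1.79 (adjusted p = 0.0134). KCNJ5, at 0.756, 1.07 and 1.25 CPM in SOT folds and 2.37, 5.54 and 3.80 CPM in normal folds, fell by 1.93 (adjusted p = 0.0143).

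KCNK5, which had risen in untreated folds, had 16.5, 12.9 and 11.0 CPM in SOT folds and 10.8, 11.4 and 6.66 CPM in normal folds (log2 fold change 0.48, adjusted p = 0.194). KCNA1 fell by 1.68 on the log2 scale in SOT folds (adjusted p = 0.0187), with 7.91, 5.53 and 4.48 CPM in SOT folds and 13.3, 25.0 and 19.1 CPM in normal folds. That call was lost without SOT replicate 2 (0.0604) or normal replicate 2 (0.0597). KCNK12, a silent two-pore channel, fell by 1.28 (adjusted p = 0.0428) and passed in 1 of the 9 fits with 1 library left out, with adjusted p up to 0.12. Of the 19 calls, 2 that rose and 3 that fell held in all 9 such fits: KCNE5 and KCNAB2, and KCNS3, KCNAB1 and KCNJ5. The number that rose was 2 without normal replicate 1, 3 without normal replicate 2, 4 without normal replicate 3 or untreated replicate 3 and 5 without SOT replicate 2. The number that fell was 4 without normal replicate 2 and 5 without SOT replicate 2 or normal replicate 1.

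In SOT folds against normal folds, 2 muscle members rose and 3 fell, 1 nerve member rose and 7 fell, 2 epithelial members rose and 0 fell, and 1 immune member rose and 0 fell. Over all tested genes 9.01% rose and 7.67% fell. The counts by class too moved with single libraries. Nerve members that fell were 1 without SOT replicate 2, 2 without normal replicate 2 and 3 without normal replicate 1. Muscle members that fell were 1 without untreated replicate 3 or normal replicate 1 or 2, 5 without untreated replicate 1 and 7 without untreated replicate 2, and 0 epithelial members rose without SOT replicate 2 or normal replicate 1 or 2. Of the companion genes, 0 of excitation-contraction coupling rose and 1 fell (CLCN1), 1 of the node and axon rose and 5 fell, 1 of epithelial transport rose (CFTR) and 1 fell (AQP5), and 5 leukocyte channels rose and 0 fell. Schwann cell markers summed to 218, 204 and 439 CPM in SOT folds and 661, 851 and 629 CPM in normal folds, and 5 of 10 fell.

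**Figure D5:**
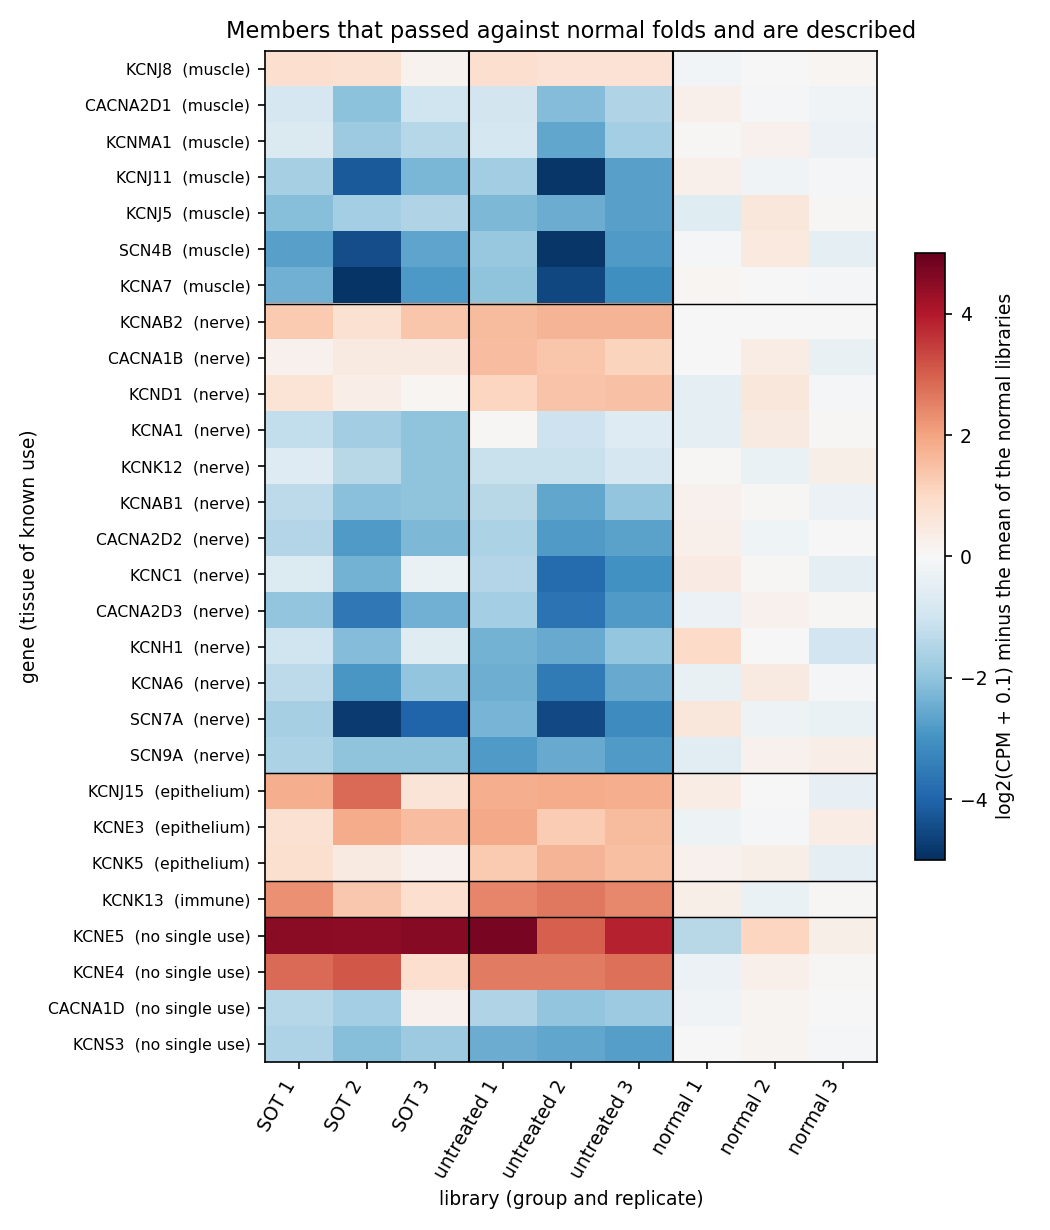
Level of the described channel genes that passed against normal folds in untreated or SOT folds, in each of the 9 libraries, as log2(CPM + 0.1) minus the mean of the normal libraries, grouped by tissue of known use. SOT libraries stand left of untreated and normal libraries. Red is above and blue below the normal mean, and KCNA7, SCN4B and KCNJ11 are lowest in replicate 2 of each injured group.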

How the data were processed

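Rabbit vocal fold libraries were prepared with oligo(dT) beads, per the labels' protocols. The submitters' processing notes name the build OryCun2.0 and the tools cutadapt 1.9, HISAT2 2.0.4, StringTie 1.3.4d and edgeR (version not named), without their order. The deposited table gives a read count and an FPKM value per gene and library, per the file headers. How reads matching several genes were treated is not given in the sources used here, and close relatives may share reads.

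The members, their classes by use and the companion and marker lists were chosen with earlier results of these data known. The deposited counts were tested in R 4.3.3 with edgeR 4.0.16 (TMM, filterByExpr by group, quasi-likelihood fit over all 9 libraries, Benjamini-Hochberg adjustment over 17344 genes, threshold 0.05). The deposited FPKM values were used for levels, for ratios within a library and, as log2(FPKM + 0.1) or log2(FPKM + 1), for limma 3.58.1. Other alternatives were DESeq2 1.42.0, no filter, a replicate block and leaving out each library. The fit was checked on simulated counts. Intervals were not computed, and floors of 3 counts cover counting error only. Depth was similar in all libraries, and no 2 libraries of a group were alike within sampling noise.

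Values per library are given for up to 5 passing members per use class, by size of change, the 4 with the highest normal FPKM per ion, the 4 of smallest p in either direction between SOT and untreated folds, and a list of well-known members. Gene positions are those of the deposited table, with chromosome numbers in place of sequence names. Some members and companion genes are counted but not reported by name here.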

Additional observations from a re-analysis of the deposited data

How the results depend on the processing

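In untreated against normal folds, the number of channel members that fell was 16 in the fit reported, 30 with DESeq2, 28 and 27 with limma on log2(FPKM + 0.1) and log2(FPKM + 1), and 7 to 22 with 1 library left out. Over all genes 32.8% passed in the fit reported, 37.4% with DESeq2 and 35.1% and 34.7% with limma. The number that rose was 11, 14 with DESeq2 and 8 to 13 with 1 library left out. In SOT against normal folds, 11 members fell, 22 with DESeq2 (25.5% of all genes passed there, against 16.7%) and 4 to 14 with 1 library left out, and 8 rose, 2 to 9 with 1 library left out. In SOT against untreated folds, DESeq2 called 3 higher and 1 lower, and leaving out a library gave 0 to 1 in each direction. Without the filter on low counts the numbers of members were 11 and 16, 0 and 0, and 8 and 11. No member that passed changed the sign of its difference, but without untreated replicate 3 more members rose (8) than fell (7) in untreated folds, and without normal replicate 2 there were 10 of each. DESeq2 also called every member that passed. Whether the replicate numbers pair the libraries is not stated, and the values do not settle it. The deviations of libraries with the same number correlated at -0.0484 to 0.267, and those with different numbers at -0.276 to 0.174. Of 9 libraries, 5 correlated best with their own number. With the replicate number as a block, 11 rose and 26 fell in untreated folds, and 8 rose and 16 fell in SOT folds, against normal folds. Over all genes 2633 fell in untreated folds with the block and 2618 without it. Rare members such as SCN9A, KCNE5 and KCNJ6 rest on few counts in at least 1 group.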
